A study of Mus musculus with 8 samples.

Results

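The genes described here encode the subunits of respiratory complexes III, IV and V that are made from the nuclear genome. They were chosen by symbol from the 32285 genes of the deposited matrices: Cyc1 and every symbol beginning with Uqcr, Cox4, Cox5, Cox6, Cox7, Cox8 or Atp5. The rule took 44 genes, 9 for complex III, 18 for complex IV and 17 for complex V, without use of any measured value. All 44 lie on nuclear chromosomes in GENCODE M21 (GRCm38). Assembly factors, cytochrome c (Cycs) and Ndufa4 have other symbols and were followed as separate lists. One member, Cox7a2l, encodes a factor that joins complexes III and IV into supercomplexes rather than a regular oxidase subunit.

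The RNA came from activated mouse CD8 T cells of 3 donor mice that were co-cultured with bone marrow stromal cells (BMSCs) whose mitochondria carried the red fluorescent protein dsRed. After co-culture, T cells were sorted into those that had taken up dsRed (MitoPositive) and those that had not (MitoNegative), so that both groups had been in contact with BMSCs. They were profiled at once (d0, here culture) or 7 days after transfer into B6 mice bearing B16KVP tumors, from spleen and tumor, and the names at d7 give the state at transfer. Single-cell 3' libraries with hashtags held 18 samples, 1 per donor in each of 6 groups. The labels do not say how recipients were divided between MitoPositive and MitoNegative cells, so recipient and arm cannot be told apart at d7. The 6 culture samples were 1 library and each donor's d7 samples another, so day and library cannot be told apart either. The labels gave neither the strain nor the age of the donors. The p-values below measure the spread between samples of these 3 donors.

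After filtering, 16364 cells entered, with 823 to 1025 cells per culture sample, 49 to 3421 per spleen sample and 30 to 993 per tumor sample. UMIs (unique molecular identifiers, 1 per captured transcript end) were summed per sample, which gave 323344 to 26516196 UMIs per sample. The smallest samples were MitoNegative tumor cells of donor 1 (30 cells) and MitoPositive spleen cells of donor 3 (49 cells). The libraries shared between 1 and 9 cell barcodes per pair. All 8 CD8 T cell markers, Cd3 and Cd8 genes among them, were found in every group, at a summed 3494 to 6011 CPM (UMIs of a gene per 1000000 UMIs of the sample). Summed myeloid markers were at 149 to 302 CPM in the other spleen samples, against 1002 CPM in MitoPositive spleen cells of donor 3. In all 18 samples, summed melanoma markers were at most 17.7 CPM and summed stromal markers at most 5.52 CPM.

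Complex III passes electrons from ubiquinol to cytochrome c, and complex IV (cytochrome c oxidase) passes them on to oxygen. Both pump protons across the inner mitochondrial membrane, and complex V (ATP synthase) uses the returning protons to make ATP. Each complex joins nuclear subunits to a few that the mitochondrial genome encodes, and CD8 T cells build up mitochondria when they are activated.

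Because the genes of these complexes move together in what follows, the promoters of 4 of them are shown. RefSeq windows (GRCm38.p6, 250 bases before to 50 after a transcription start) were found for 33 of the 44 members, as 36 windows. Both strands were searched. For NRF1, a factor known for respiratory genes, the core site was searched with any base allowed at a middle position. An NRF1 match therefore need not be a palindrome. Exact matches were sought to CCGGAAG (ETS factors, GABP among them), AAGATGGCG (YY1), TCAAGGTCA (ERR receptors) and CACGTG (E-box). The NRF1 site was present in 8 windows (22.2%), against 4.6% of 32851 windows of all genes. The ETS site was present in 11 windows (30.6%), against 8.86% of all. The YY1 site was in 5.56% against 1.4%, the ERR site in 2.78% against 0.423%, and the E-box in 11.1% against 7.15%. Base composition was not matched, and a match is a description of letters, not of binding. Below, capitals mark the matches on either strand. Atp5g3 (chr2:73911277-73911576, minus strand) holds the NRF1, ERR and E-box letters. Atp5k (chr5:108434350-108434649, minus strand) holds NRF1 and ETS letters, and Atp5j (chr16:84834927-84835226, minus strand) ETS and YY1 letters. The other Atp5j window (chr16:84835576-84835875), which is not printed, holds none of the 5. Atp5j faces Gabpa, the gene of an ETS factor, on the opposite strand. The fourth, Cox7a2l (chr17:83514284-83514583, minus strand), is the member that went against the rest in most comparisons and holds none of the 5. This does not set it apart, since the windows of Cox5a, Cox5b, Atp5b, Cox7a2 and Uqcr10 hold none of the 5 either. Atp5h, which also fell in the tumor of MitoNegative cells, holds NRF1 and ETS letters. All 4 windows printed below were chosen after the values of their genes were seen.
Atp5g3: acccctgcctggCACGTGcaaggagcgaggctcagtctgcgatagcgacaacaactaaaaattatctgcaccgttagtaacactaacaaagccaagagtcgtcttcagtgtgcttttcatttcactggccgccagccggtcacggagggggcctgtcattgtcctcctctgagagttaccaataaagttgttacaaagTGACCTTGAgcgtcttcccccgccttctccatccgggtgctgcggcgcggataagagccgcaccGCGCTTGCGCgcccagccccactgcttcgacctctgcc
Atp5k: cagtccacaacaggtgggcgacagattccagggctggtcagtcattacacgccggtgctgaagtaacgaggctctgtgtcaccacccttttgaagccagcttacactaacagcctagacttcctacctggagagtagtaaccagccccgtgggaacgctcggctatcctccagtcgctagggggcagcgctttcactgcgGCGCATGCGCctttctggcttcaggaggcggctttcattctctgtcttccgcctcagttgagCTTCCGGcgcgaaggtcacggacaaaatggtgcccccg
Atp5j: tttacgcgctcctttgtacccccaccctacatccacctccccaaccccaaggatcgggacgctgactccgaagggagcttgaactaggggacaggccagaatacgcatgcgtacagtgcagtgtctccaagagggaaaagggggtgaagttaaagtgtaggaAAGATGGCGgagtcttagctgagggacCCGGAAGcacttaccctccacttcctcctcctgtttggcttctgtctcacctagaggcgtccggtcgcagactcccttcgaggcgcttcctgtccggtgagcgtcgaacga
Cox7a2l: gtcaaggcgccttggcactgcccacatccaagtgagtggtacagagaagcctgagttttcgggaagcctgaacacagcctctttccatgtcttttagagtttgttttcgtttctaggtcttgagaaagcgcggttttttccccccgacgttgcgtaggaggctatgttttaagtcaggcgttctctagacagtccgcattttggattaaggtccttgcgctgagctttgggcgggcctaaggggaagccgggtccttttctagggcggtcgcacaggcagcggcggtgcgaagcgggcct

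Of the 44 members, 37 held between 11557 (Cyc1) and 144080 (Atp5e) UMIs over the 18 samples, and 7 held fewer than 400. The 7 are isoforms known from muscle, lung or testis: Cox7a1 (299 UMIs), Cox6b2 (165), Cox4i2 (89), Cox6a2 (34), Cox7b2 (1), Cox8b (1) and Cox8c (0). For Cox8c, 0 of 136857122 UMIs allows a level of up to 0.0219 CPM, which covers counting error only. A filter on low counts left 37 members to be tested at d0 and 40 in each fit with d7 samples, the difference being Cox4i2, Cox6b2 and Cox7a1. The isoforms that T cells used were therefore Cox4i1, Cox6a1, Cox6b1, Cox7a2 with Cox7a2l, Cox7b and Cox8a. Cox4i1, the common form of subunit 4, made up 99.3% to 100% of Cox4 UMIs in every sample, Cox6a1 99.6% to 100% of Cox6a UMIs and Cox6b1 99.2% to 100% of Cox6b UMIs. These shares compare UMIs, which count transcript ends and do not depend on transcript length.

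Some members share sequence with other annotated transcripts, so that part of their reads could have been lost or split. Of the 50-base stretches in the last 300 bases of their transcripts, 70.1% in Atp5l, 65.2% in Cox7c, 59.2% in Atp5h and 55.5% in Atp5g2 also occur in another annotated gene. For 11 of the 44 the share was above 18%, and these levels are uncertain. It was 0 for 26 members, among them Cyc1, Atp5b, Cox7a2, Cox7a2l and Uqcr10. Members that overlap a gene on the opposite strand, among them Uqcrc2 (Pdzd9), Cox4i1 (Emc8), Atp5j (Gabpa), Atp5a1 (Haus1) and Cox6c (Vps13b), are uncertain too, since the strand setting of the counting is not given in the sources used here.

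The summed level of the 44 members was lowest in culture and, by group means, highest in the tumor. In culture the members made up 1.08%, 1.11% and 1.21% of UMIs in MitoPositive cells of donors 1, 2 and 3, and 1.00%, 1.09% and 1.08% in MitoNegative cells. In the spleen, MitoPositive cells held 1.40%, 1.45% and 1.39%, and MitoNegative cells 1.86%, 1.77% and 1.51%. In the tumor, MitoPositive cells held 1.87%, 2.08% and 1.83%, and MitoNegative cells 1.83%, 1.88% and 1.95%. Culture samples thus lay below all d7 samples, MitoPositive spleen samples lay below MitoNegative ones of every donor, and the tumor arms overlapped. MitoNegative spleen cells of donor 1 lay within the tumor range. The group means of each complex followed this order on their own, as the plot of summed shares shows, but in complex III the spleen arms overlapped. The 6 mitochondrially encoded subunits of the same complexes did not. Their share of UMIs was 1.95% to 2.26% in culture, 1.45% to 1.80% in spleen samples and 1.32% to 1.70% in tumor samples. The edgeR fits, which scale samples to one another, showed no common fall. From culture to spleen 1 rose and 2 fell in MitoPositive cells (median -0.06), and 3 rose and 1 fell in MitoNegative cells (median 0.17). From culture to tumor 3 rose and 1 fell (0.12), and 2 rose and 1 fell (0.02). A culture cluster of cells with few UMIs, led by mitochondrially encoded genes, held 24.9% to 43.5% of cells per culture sample. Its part in the shares was not tested.

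**Figure D1:**
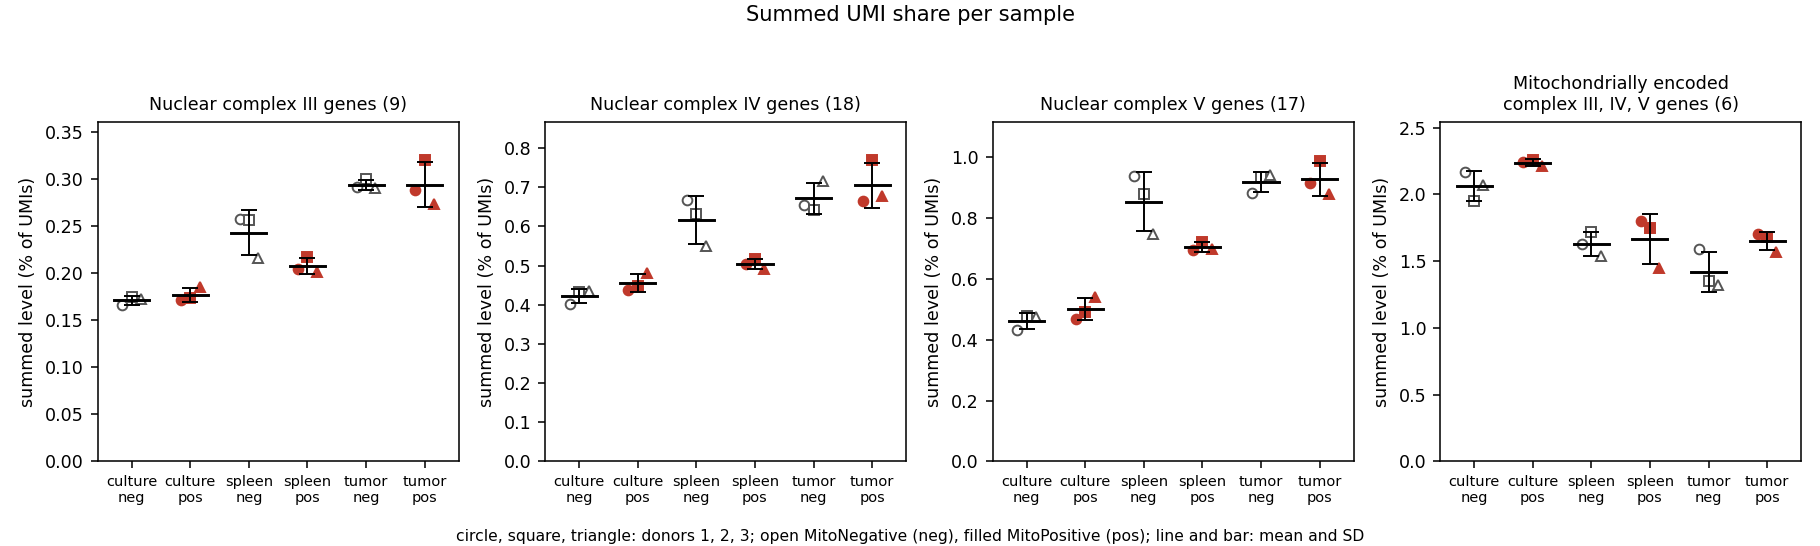
Summed share of all UMIs (y axis, percent) per sample for the nuclear genes of complexes III, IV and V and for the mitochondrially encoded genes of the same complexes; points are donors, lines and bars the mean and SD of 3 samples. By group means the nuclear genes were lowest in culture and highest in the tumor, where complex V reached 0.987% of UMIs, while the mitochondrially encoded genes were highest in culture.

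The first comparison set dsRed-positive against dsRed-negative cells before transfer. In culture 3 of 37 tested members rose in MitoPositive cells and none fell, where 6.03% of the 11436 genes tested rose and 3.23% fell. As a share of the members, these 3 lay near the share of all genes that rose. They were Cox5a and Cox5b, a pair of nuclear subunits that sit beside the catalytic core of the oxidase, and Atp5c1, the gamma shaft that turns inside the ATP synthase head. The differences were small: 36 of 37 log2 fold changes were positive, with a median of 0.16 against -0.0035 over all genes tested. Medians were 0.12 for complex III (9 members), 0.19 for complex IV (11 members) and 0.16 for complex V (17 members).

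Cox5a (chr9:57521274-57532426) was at 249, 268 and 314 CPM in MitoPositive cells of donors 1, 2 and 3 and at 190, 212 and 226 CPM in MitoNegative cells. The groups did not overlap, and the log2 fold change was 0.45 ± 0.10 (SE, n = 3 per group, edgeR adjusted p = 0.015). Cox5b (chr1:36691449-36693681) was at 266, 286 and 311 CPM against 217, 241 and 239 CPM, again without overlap, with a log2 fold change of 0.35 ± 0.09 (edgeR adjusted p = 0.022). Atp5c1 was at 266, 281 and 293 CPM against 220, 231 and 258 CPM, with 0.29 ± 0.08 (edgeR adjusted p = 0.047). All 3 were higher in MitoPositive cells of each donor. Cox7a2l was the only tested member below 0: 537, 517 and 475 CPM against 657, 625 and 563 CPM, which did not overlap, at -0.23 ± 0.07 (edgeR adjusted p = 0.073).

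Without overlap between the groups, 11 members were higher and 1 was lower, where 12.3% and 15.8% of all genes did so. With the donor as a replicate block, 21 members rose and Cox7a2l fell, where 2295 of the 11436 genes were called against 1059 without the block. Under the other of the 2 hashtag maps that the labels give for d0 (hashtags 1 to 3 against 4 to 6), no gene of any kind passed, and the median of the members was -0.11. Cycling clusters held 3.99% to 8.59% of MitoPositive and 0.53% to 1.90% of MitoNegative cells of these samples. Without them 2 members rose, with a median of 0.11, among 635 of 11217 genes called in either direction. Cells were also thinned to 2000 UMIs each, with cells of fewer UMIs left out, so that this setting also changed which cells entered. In thinned cells 0 members rose and 1 fell, with a median of 0.0237, among 367 of 9022 genes called. Cells of the low-UMI clusters had members at 0.556% to 0.645% of UMIs in culture, in either arm. Without these clusters 12 members rose, among 1472 of 10992 genes called.

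In the spleen the direction was opposite. No member passed the test by edgeR, where 2.97% of 11905 genes fell and 1.59% rose, but 22 of 40 had an unadjusted p under 0.05 and 36 of 40 fold changes were negative, with a median of -0.27 against -0.0001 over all genes. DESeq2 called 8 members, all lower in MitoPositive cells, among 671 of 11905 genes called in either direction. Of the 40, 22 were lower in all 3 MitoPositive samples than in any MitoNegative sample and 0 were higher, where 13.8% and 5.78% of all genes did so. The lowest log2 fold changes were those of Cox7a1 (-0.92 ± 0.48), Atp5k (-0.47 ± 0.14), Atp5j (-0.45 ± 0.13) and Cox5b (-0.45 ± 0.14), with edgeR adjusted p of 0.36, 0.079, 0.079 and 0.1.

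Atp5k, the e subunit at the membrane base where ATP synthase dimers form, was at 401, 409 and 374 CPM in MitoPositive and at 649, 551 and 458 CPM in MitoNegative spleen cells of donors 1, 2 and 3. Atp5j, a part of the peripheral stalk, was at 335, 335 and 371 CPM against 535, 469 and 414 CPM. Cox5b was at 372, 400 and 384 CPM against 592, 546 and 441 CPM. In these 3 members the MitoPositive samples lay below every MitoNegative sample, and the MitoNegative samples spread more widely, with donor 1 highest and donor 3 lowest. Uqcrh, the hinge protein of complex III, differed little: 638, 689 and 637 CPM against 626, 686 and 602 CPM, at 0.05 ± 0.09. Without donor 3, whose MitoPositive sample held 49 cells and the highest myeloid marker level, 10 members fell, among 1065 of 12307 genes called. Without the clusters led by other cell types 9 fell, among 846 of 11607 genes called, and in a fit of the spleen samples alone 7 fell, among 872 of 11476. With all d7 samples and clusters edgeR called 542 of 11905 genes. Leaving out the d7 samples of under 50 cells left the count at 0. Summed NK and gamma delta T cell markers were at 199 to 254 CPM in MitoPositive and 108 to 203 CPM in MitoNegative spleen cells, with 3 of 5 tested higher in MitoPositive cells, and their part in the result was not tested.

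Cycling clusters held 12.2% to 26.3% of MitoNegative and 2.44% to 6.12% of MitoPositive spleen cells. Members made up 1.83% to 2.03% of UMIs in cycling cells of the 5 spleen samples with enough of them. In the remaining spleen cells the members made up 1.39%, 1.44% and 1.34% of UMIs in MitoPositive and 1.77%, 1.69% and 1.44% in MitoNegative cells of donors 1, 2 and 3. Each donor's MitoPositive value was lower than its MitoNegative value there too, while donor 3's MitoNegative and donor 2's MitoPositive value were both 1.44% as rounded. Without the cycling clusters the median was -0.24 over the 39 members tested, and no member passed, where 134 of 11475 genes did.

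In the tumor no difference between the arms was detectable for the members. Of 40, 0 passed by edgeR or by DESeq2 and 2 had an unadjusted p under 0.05, where edgeR called 0.193% of 11905 genes, and the median log2 fold change was 0.06, against 0.05 over all genes (-0.0051 with DESeq2 size factors). Cox7a2l had the largest positive value, at 188, 171 and 168 CPM in MitoPositive against 145, 155 and 124 CPM in MitoNegative cells (0.36 ± 0.12, edgeR adjusted p = 0.29). The largest negative values belonged to members with few UMIs: Cox4i2 held 24 and 10 UMIs in the arms, Cox6b2 39 and 8, and Cox7a1 120 and 19. For Atp5b, the catalytic beta subunit, the difference was -0.04 ± 0.12, and for Cox5a it was 0.04 ± 0.14.

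**Figure D2:**
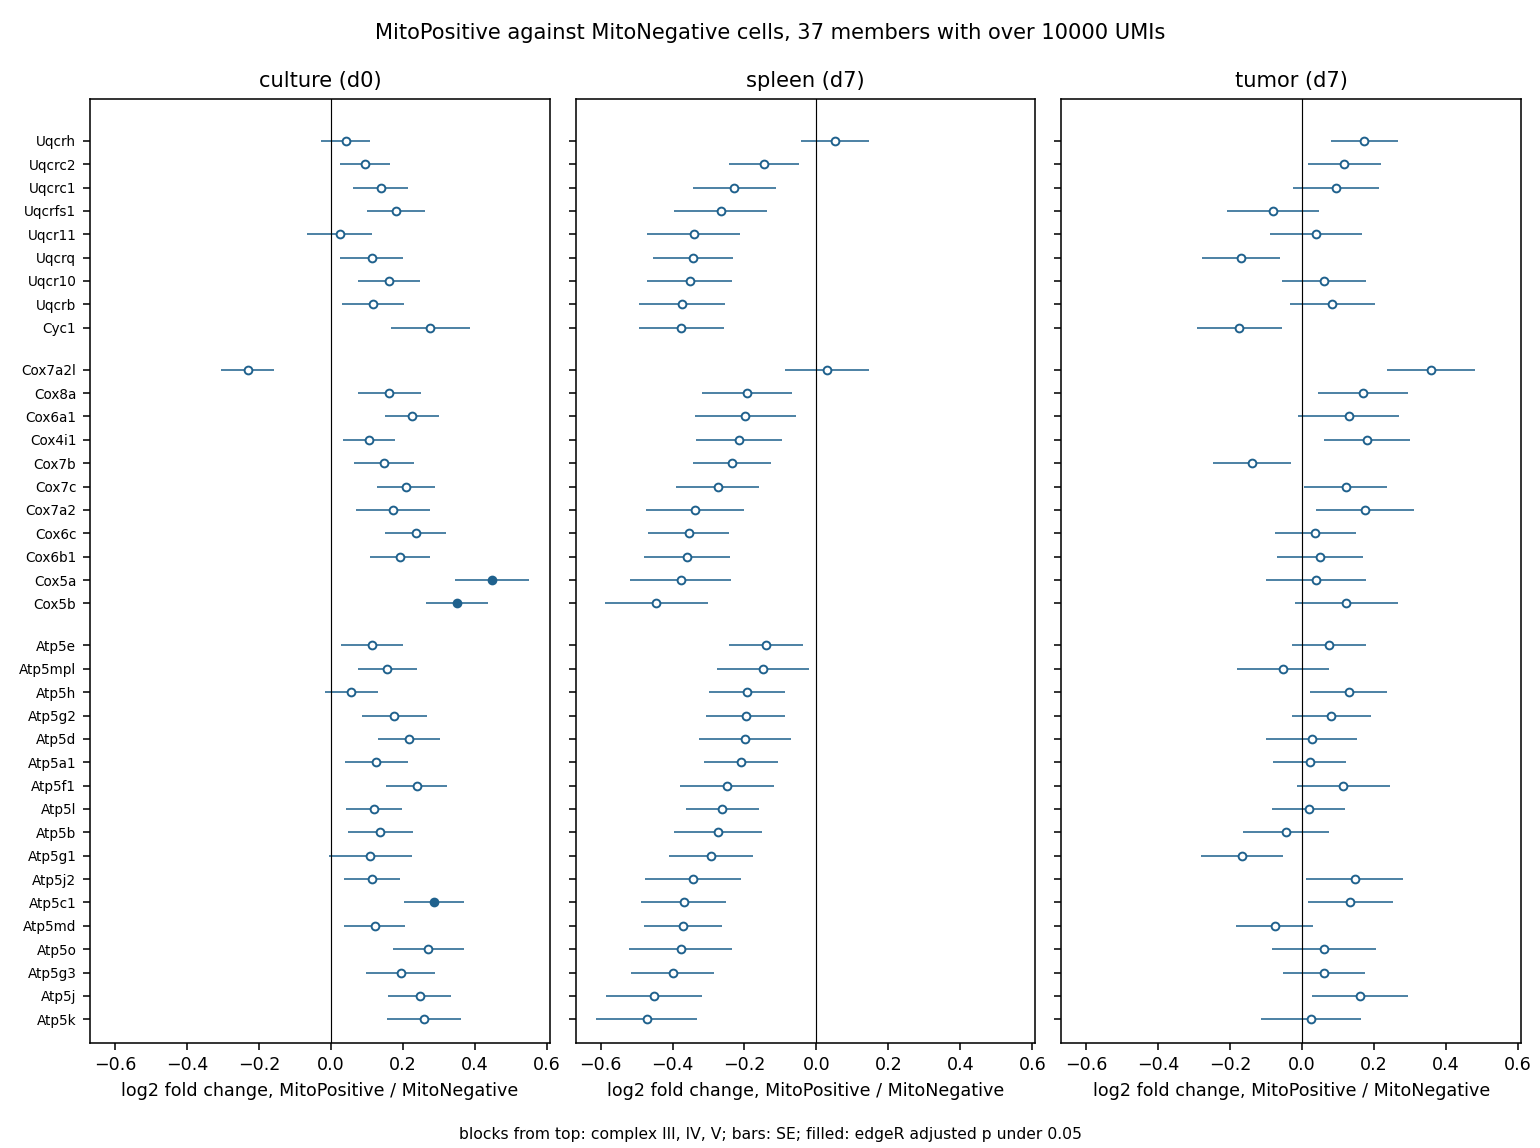
Log2 fold change of MitoPositive over MitoNegative cells (x axis) with its SE for the 37 members with over 10000 UMIs, in blocks for complexes III, IV and V, in culture, spleen and tumor; filled points passed edgeR's test. In culture 36 of 37 values lie above 0, in the spleen all but Uqcrh and Cox7a2l lie below 0, and in the tumor they lie on both sides.

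The difference between these arm effects was itself tested. Comparing spleen with culture, 16 of 40 members had a lower MitoPositive effect in the spleen and none a higher one, where 7.46% of 12754 genes were called lower and 3.58% higher. In all, 38 of 40 values were negative, with a median of -0.46 against -0.0084 over all genes (-0.47 without Cox4i2). The called members came from each complex: 4 of 9 for complex III, 6 of 14 for complex IV and 6 of 17 for complex V. Cox5a differed by -0.85 ± 0.19 (edgeR adjusted p = 0.0069), Cox5b by -0.81 ± 0.18 (edgeR adjusted p = 0.0062) and Atp5c1 by -0.68 ± 0.15 (edgeR adjusted p = 0.0055). Cyc1, the cytochrome c1 of complex III, differed by -0.67 ± 0.16 (edgeR adjusted p = 0.012). Without donor 1, and likewise without donor 2, no member passed (medians -0.37 and -0.51), where 453 of 12993 and 352 of 12695 genes did. The count was 3 without cycling clusters (median -0.39), 2 in thinned cells (median -0.28) and 7 with no donor block (median -0.43). In those fits 398 of 12589, 610 of 10086 and 915 of 12754 genes were called, against 1408 of 12754 in the fit that gave 16. Under the other hashtag map for d0, edgeR called 0 of 40 members and 38 of 12754 genes, and the median was -0.16, so this result depends on the map. All 44 cell cycle genes of the S and G2/M lists were called in the same direction in this comparison. Comparing tumor with culture, 0 of 40 passed by edgeR, where 0.525% of genes did, 5 had an unadjusted p under 0.05, and DESeq2 called 1. The median was -0.13, and 0.18 under the other map, where again 0 passed. Comparing tumor with spleen, 0 of 40 passed by edgeR and 0 by DESeq2, where 0.0504% of genes passed by edgeR. In that comparison 14 members had an unadjusted p under 0.05, and 38 of 40 values were positive, with a median of 0.33 against 0.07 over all genes. The 3 comparisons share samples.

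Most members were higher in the tumor than in the spleen. In MitoPositive cells 32 of 40 members rose from spleen to tumor and none fell, where 28.5% of 11905 genes rose and 28.4% fell, and the median was 0.63 against -0.0112 over all genes. In MitoNegative cells 16 rose and 2 fell, where 20.2% rose and 23.1% fell, with a median of 0.25 against -0.08. All 16 that rose in MitoNegative cells also rose in MitoPositive cells, while 16 passed in MitoPositive cells alone, but the test of that difference, above, called none.

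Among the core subunits of complex III, Cyc1 was at 132, 127 and 106 CPM in MitoPositive tumor cells of donors 1, 2 and 3 and at 73.8, 75.4 and 52.6 CPM in the spleen. In MitoNegative cells it was at 131, 151 and 131 CPM against 101, 94.4 and 75.9 CPM. Tumor values were above spleen values in every donor, and the log2 fold changes were 0.93 ± 0.12 (edgeR adjusted p = 2.6e-05) and 0.73 ± 0.12 (edgeR adjusted p = 0.00027). Uqcrfs1, the Rieske iron-sulphur protein that hands electrons to Cyc1, rose by 0.98 ± 0.13 in MitoPositive and by 0.79 ± 0.13 in MitoNegative cells. Uqcr10, a small subunit next to Cyc1, was at 544, 643 and 538 CPM in MitoPositive tumor against 305, 319 and 316 CPM in spleen cells, and rose by 1.01 ± 0.12. The core proteins Uqcrc1 and Uqcrc2, which give the complex its matrix body, rose by 0.51 ± 0.12 and 0.49 ± 0.10 in MitoPositive cells and did not pass in MitoNegative cells (0.19 ± 0.12 and 0.23 ± 0.10). Uqcrh was the member of complex III that passed in neither arm, at 0.12 ± 0.09 and -0.0025 ± 0.09.

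In complex V, Atp5b, the catalytic subunit of the head, had the largest log2 fold change in both arms. Atp5b (chr10:128083273-128090391) was at 536, 541 and 525 CPM in MitoPositive tumor cells, against 280, 275 and 223 CPM in the spleen. In MitoNegative cells it was at 574, 536 and 582 CPM against 366, 316 and 279 CPM. No tumor sample overlapped a spleen sample, and the log2 fold changes were 1.15 ± 0.12 (edgeR adjusted p = 5.4e-06) and 0.92 ± 0.12 (edgeR adjusted p = 4.5e-05). Its partner in the head, Atp5a1, rose by 0.90 ± 0.10 and 0.67 ± 0.10. The shaft subunit Atp5c1 rose by 0.54 ± 0.12 in MitoPositive cells and was at 0.04 ± 0.12 in MitoNegative cells. Likewise Atp5j was at 0.65 ± 0.13 and 0.03 ± 0.13. Atp5e, the epsilon subunit of the shaft, did not pass in either arm (0.25 ± 0.10 and 0.04 ± 0.10), nor did Atp5l and Atp5mpl, small subunits in the membrane.

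In complex IV, Cox7a2 rose by 1.05 ± 0.14 in MitoPositive and by 0.54 ± 0.14 in MitoNegative cells. Cox5a was at 514, 588 and 468 CPM in MitoPositive tumor cells against 362, 349 and 337 CPM in the spleen, and rose by 0.71 ± 0.14 (edgeR adjusted p = 0.00083). In MitoNegative cells its values, 477, 551 and 525 CPM against 539, 474 and 357 CPM, overlapped (0.29 ± 0.14, edgeR adjusted p = 0.11). Cox7a1, the muscle isoform of the same subunit as Cox7a2, had the largest log2 fold changes, 2.20 ± 0.47 and 1.66 ± 0.52, from few molecules: 120 UMIs in MitoPositive and 19 in MitoNegative tumor cells, against 21 and 86 in the spleen. Among members with over 10000 UMIs, Atp5b had the largest value in both arms.

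Cox7a2l and Atp5h went the other way. Cox7a2l (chr17:83501918-83517330, minus strand), the supercomplex factor, was at 145, 155 and 124 CPM in MitoNegative tumor cells against 219, 218 and 224 CPM in the spleen and fell by 0.55 ± 0.12 on the log2 scale (edgeR adjusted p = 0.0025). In MitoPositive cells it was at 188, 171 and 168 CPM against 259, 224 and 173 CPM (-0.22 ± 0.12, edgeR adjusted p = 0.12). Atp5h, a subunit of the peripheral stalk, was at 628, 593 and 573 CPM in MitoNegative tumor cells against 975, 890 and 779 CPM in the spleen. It fell by 0.46 ± 0.11 on the log2 scale (edgeR adjusted p = 0.0031), and in MitoPositive cells the value was -0.14 ± 0.11 (edgeR adjusted p = 0.26). Atp5h is 1 of the members that share much 3' sequence with other annotated genes, whereas Cox7a2l shares none.

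**Figure D3:**
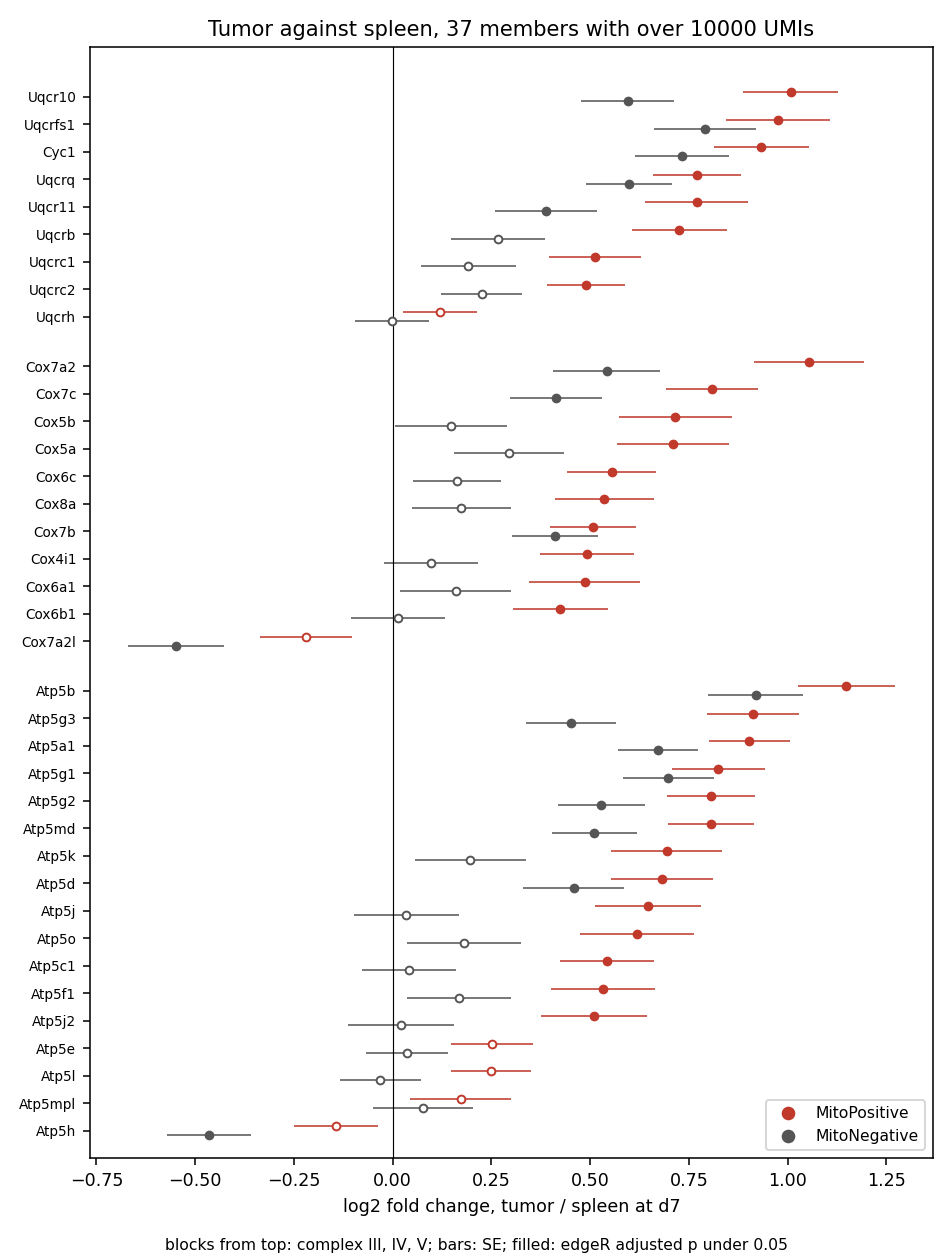
Log2 fold change of tumor over spleen at d7 (x axis) with its SE for the 37 members with over 10000 UMIs, in blocks for complexes III, IV and V; red is MitoPositive, grey MitoNegative, and filled points passed edgeR's test. Most members lie to the right of 0, with Atp5b at 1.15 and 0.92, while Cox7a2l and Atp5h lie to the left in both arms.

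Other measures moved with the tissue. Cells in the tumor had a median of 10067 to 21064 UMIs, against 5288 to 7307 in the spleen. With cells thinned to 2000 UMIs, and those of fewer left out, 24 of 37 members rose in MitoPositive cells (median 0.43). In MitoNegative cells 9 rose and 2 fell (median 0.14). In these fits 3941 and 1898 of 9215 genes were called. Of 13 dissociation stress genes, 11 rose in MitoPositive and 10 in MitoNegative cells, and their summed level was 2219 to 2724 CPM in the tumor against 869 to 1071 CPM in the spleen. All 22 S phase genes rose in MitoPositive and 4 in MitoNegative cells, and of 22 G2/M genes 19 and 1 rose. Cycling clusters nevertheless held at most 2.68% of cells in any tumor sample. Myeloid markers were at 40.3 to 366 CPM in the tumor and 149 to 1002 CPM in the spleen. B cell markers were at 0.808 to 4.03 CPM in the tumor and 18.6 to 69.1 CPM in the spleen. NK and gamma delta T cell markers were at 131 to 150 CPM in MitoPositive tumor and 199 to 254 CPM in MitoPositive spleen cells, and 1 of 5 rose and 4 fell. CD8 T cell markers were at 3494 to 3957 CPM in the tumor and 4994 to 5663 CPM in the spleen, and 3 of 8 fell in MitoPositive and 5 of 8 in MitoNegative cells. The parts of dissociation stress and of the CD8 and NK marker differences in the result were not tested. Without the clusters led by other cell types, 32 members rose in MitoPositive and 17 in MitoNegative cells, among 6800 and 5246 of 11607 genes called. Without cycling clusters the counts were 34 and 20, among 6852 and 5751 of 11475 genes called. As these clusters held few tumor cells, that fit removed cycling cells mainly from the spleen. It cannot show what part cycling in the tumor had.

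**Figure D4:**
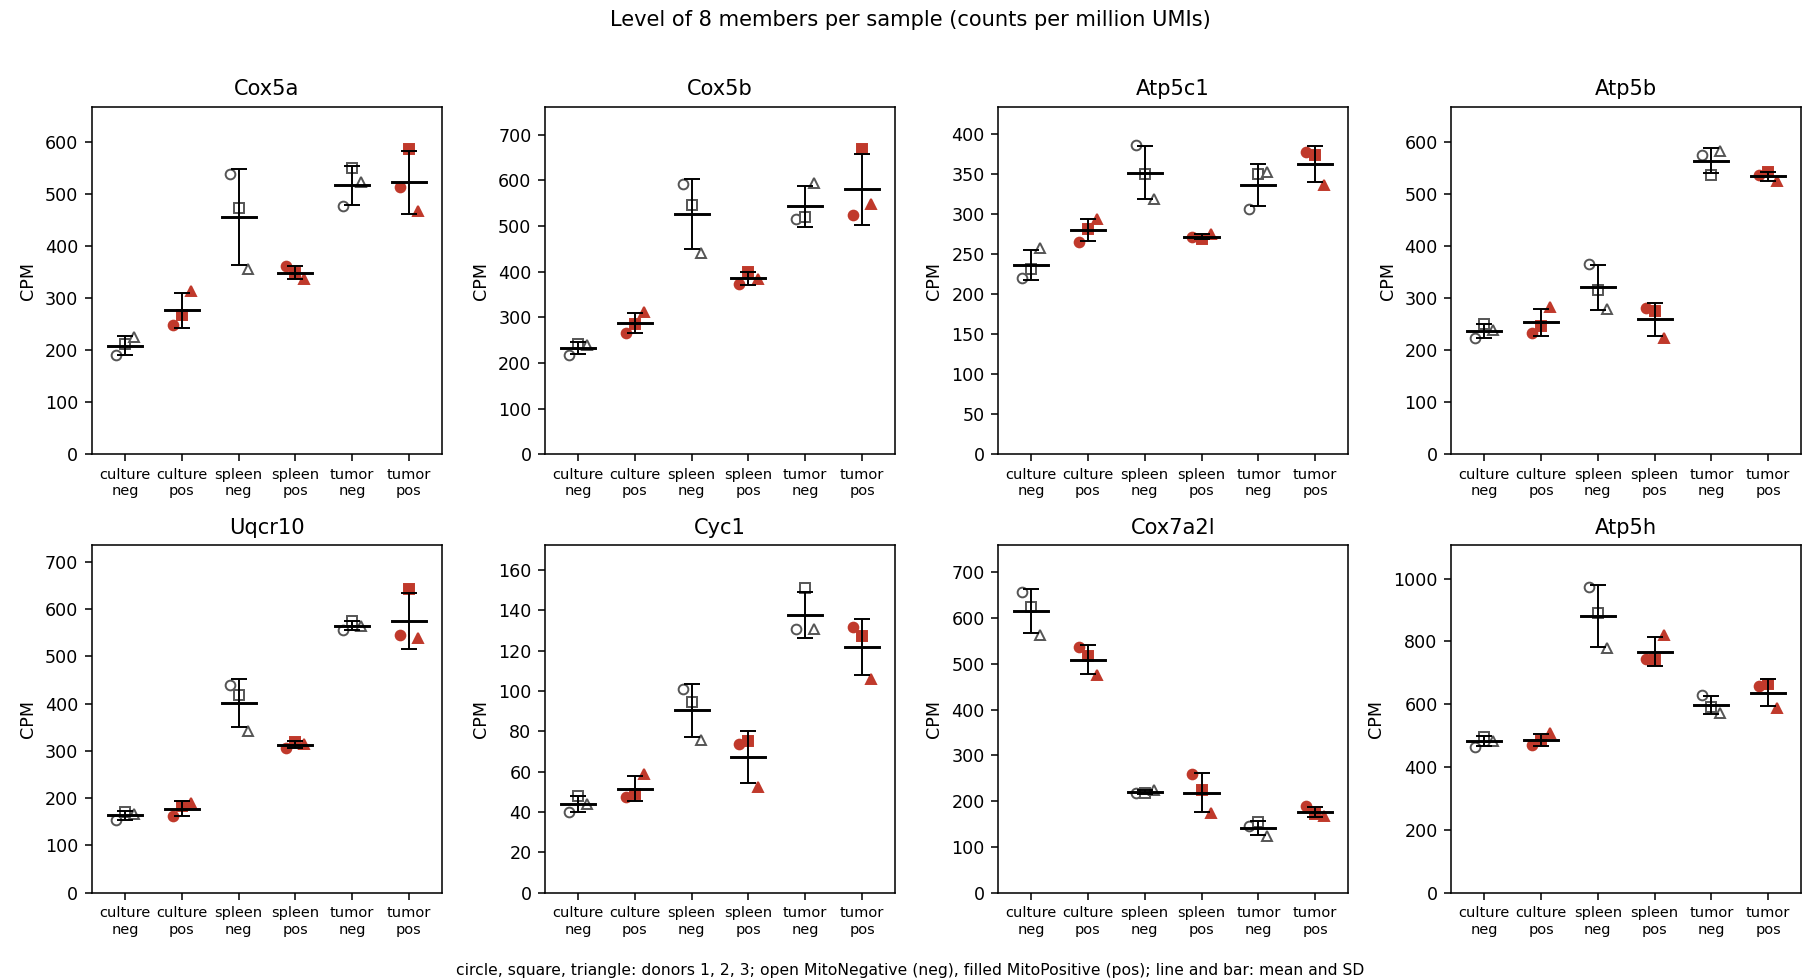
Level in CPM (y axis) of 8 members in every sample; points are donors, lines and bars the mean and SD of 3 samples. Cox5a, Cox5b and Atp5c1 are higher in MitoPositive than in MitoNegative culture cells and lower in MitoPositive spleen cells, Atp5b and Uqcr10 are highest in the tumor, and Cox7a2l is highest in culture.

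Between culture and d7 most members rose. From culture to spleen 27 of 40 rose and 3 fell in MitoPositive cells (23.8% of 12754 genes rose, 22.5% fell), and 35 rose and 1 fell in MitoNegative cells (33% rose, 29% fell). From culture to tumor 36 rose and 1 fell in each arm, where 36.8% and 32.8% of genes rose and 35.4% and 31.7% fell. Median log2 fold changes were 0.51 and 1.02 for the spleen and 1.14 and 1.34 for the tumor, in MitoPositive and MitoNegative cells, against -0.0088, 0.03, 0.0029 and -0.02 over all genes. Cox4i2 is among the risers: it held 0 UMIs in MitoPositive and 1 in MitoNegative culture cells. Set against 3 counts over the MitoPositive culture group, it was at least 8.23-fold higher in MitoPositive spleen cells (19 UMIs), and the median with Cox4i2 at that bound was again 0.51. Low-UMI clusters, in which members were at 0.556% to 0.645% of UMIs in culture, held 24.9% to 43.5% of culture cells and at most 10.6% of cells of any d7 sample. Without them 24 members rose and 4 fell from culture to spleen in MitoPositive cells, with a median of 0.35. The other 3 medians without them were 0.86 for the spleen in MitoNegative cells and 0.94 and 1.17 for the tumor. Of 11 myeloid markers, 11 and 10 rose from culture to spleen and 9 and 11 from culture to tumor, in MitoPositive and MitoNegative cells. Of 13 dissociation stress genes, 10 and 9 rose from culture to spleen, and 12 rose and 1 fell in the tumor in each arm. The parts of myeloid RNA and dissociation stress in these changes were not tested. Under the other hashtag map, 30 and 32 members rose in the spleen and 36 and 35 in the tumor. Because day and library are the same here, and cultured cells differ from transferred ones in many respects, these values describe the samples only.

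The member that rose most from culture among those with over 10000 UMIs, in all 4 comparisons, was Atp5g1, 1 of the 3 genes that encode the same c-ring protein of ATP synthase, through which protons pass. It was at 100, 117 and 134 CPM in MitoPositive culture cells, 292, 310 and 251 CPM in the spleen and 480, 490 and 421 CPM in the tumor. It rose by 1.38 ± 0.13 and 2.24 ± 0.13 on the log2 scale. Its sister genes rose less, so that the make-up of c-ring RNA differed: Atp5g1 was 16.1% to 19.1% of the UMIs of the 3 genes in culture, 26.7% to 29.6% in spleen samples and 27.2% to 34.1% in tumor samples. Atp5g2 fell from 60.4% to 62.2% of these UMIs in culture to 41.9% to 49.8% at d7, and Atp5g3 stayed between 20.3% and 26.5%. The culture and d7 ranges of the Atp5g1 and Atp5g2 shares did not overlap, although Atp5g1 and Atp5g2 share 36% and 55.5% of their 3' stretches with other genes.

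Cox7a2l was the member that fell in all 4 comparisons with culture. It was at 537, 517 and 475 CPM in MitoPositive and 657, 625 and 563 CPM in MitoNegative culture cells, against 124 to 259 CPM over the 12 d7 samples. Its log2 fold changes were -1.08 ± 0.10 and -1.33 ± 0.09 for the spleen and -1.27 ± 0.09 and -1.85 ± 0.10 for the tumor. Cox7a2, the common subunit of the oxidase and its relative, moved the other way, from 202 to 278 CPM in culture to 338 to 495 CPM in spleen cells and 557 to 729 CPM in tumor cells. Cox7a2 therefore made up 23.5% to 36.8% of the UMIs of Cox7a1, Cox7a2 and Cox7a2l in culture, 56.4% to 69.1% in spleen samples and 76.4% to 84% in tumor samples, ranges that did not overlap. Cox4i1 and Uqcrc2 also fell from culture to spleen in MitoPositive cells, by 0.53 ± 0.10 and 0.29 ± 0.08 on the log2 scale (edgeR adjusted p = 0.00033 and 0.007). Uqcrh passed in none of the 4 comparisons.

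**Figure D5:**
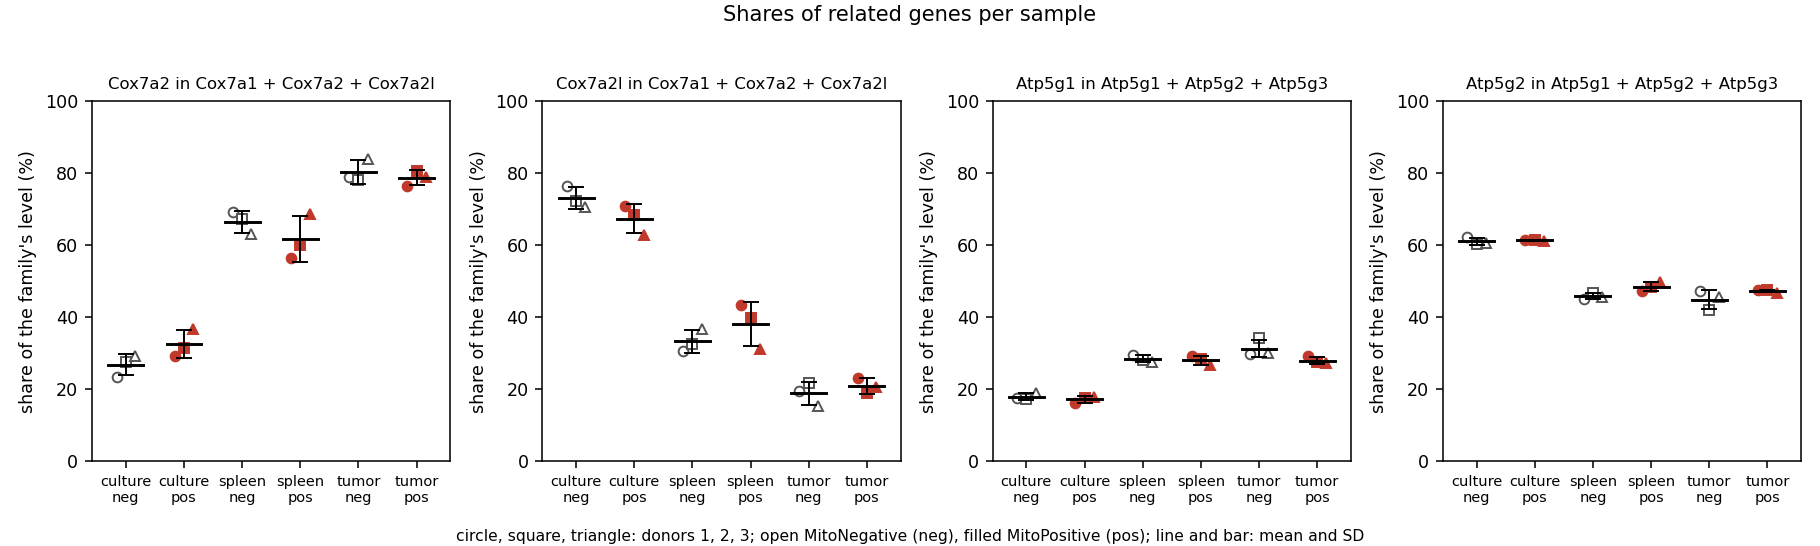
Share (y axis, percent) of Cox7a2 and Cox7a2l in the UMIs of the Cox7a family, and of Atp5g1 and Atp5g2 in those of the c-ring genes, per sample; points are donors, lines and bars the mean and SD of 3 samples. The Cox7a2 share runs from 23.5% in culture to 84% in the tumor, and the Atp5g1 share is higher at d7 than in culture.

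The genes that work with these subunits were followed as lists. Of 37 nuclear complex I subunits, none passed between the arms in culture or in the spleen, with medians of 0.12 and -0.30, and 25 rose in the tumor in MitoPositive cells (10 rose and 2 fell in MitoNegative cells). The mitochondrially encoded subunits of complexes III, IV and V differed little between tissues: 2 of 6 rose in the tumor in MitoPositive cells, mt-Cytb by 0.34 ± 0.10 and mt-Co3 by 0.23 ± 0.08, and in MitoNegative cells mt-Atp6 fell by 0.21 ± 0.07 on the log2 scale. None of the 6 passed between the arms in culture or spleen. Atpif1, the inhibitor that blocks ATP synthase when it runs in reverse, passed between the arms in culture and in the spleen. It rose by 0.62 ± 0.09 in MitoPositive culture cells (edgeR adjusted p = 0.001) and fell by 0.72 ± 0.15 in MitoPositive spleen cells (edgeR adjusted p = 0.019). Between the arms in the tumor, Atpif1 did not pass, nor did any other of the 5 complex V assembly and inhibitor genes. From spleen to tumor Atpif1 rose by 1.49 ± 0.16 in MitoPositive and by 0.46 ± 0.15 in MitoNegative cells.

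Of 25 tested complex IV assembly genes, 2 fell in MitoPositive spleen cells, Cmc2 by 0.83 ± 0.22 and Cox17, a copper chaperone, by 0.59 ± 0.15. From spleen to tumor 8 of the 25 rose and 1 fell in MitoPositive cells, and 3 rose and 5 fell in MitoNegative cells. These shares lie near or below those of all genes given above for the same comparisons. Cox17 rose in both, by 1.49 ± 0.16 and 0.97 ± 0.15. Of 6 complex III assembly genes, Uqcc2 rose by 0.45 ± 0.11 in MitoPositive culture cells, and from spleen to tumor by 0.71 ± 0.14 and 0.53 ± 0.14. It was the only 1 of the 6 that rose from spleen to tumor. In MitoPositive cells 1 fell (median of the 6 -0.28), and in MitoNegative cells 2 fell (median -0.33). Cycs, the cytochrome c that carries electrons from complex III to IV, rose in the tumor by 1.41 ± 0.15 and 1.16 ± 0.15, more than any member with over 10000 UMIs. Of 12 tested regulators of respiratory gene transcription, none passed between the arms. From spleen to tumor 2 rose and 3 fell in MitoPositive cells, where 28.5% of all genes rose and 28.4% fell. In MitoNegative cells 3 rose and 4 fell, where 20.2% rose and 23.1% fell. Medians of the list were 0.0035 and -0.10. In MitoPositive cells Gabpb1, a subunit of GABP, rose by 1.13 ± 0.14. Ppargc1b, a coactivator, and Esrra, an ERR receptor, fell there by 1.83 ± 0.27 and 1.36 ± 0.19 on the log2 scale. These are RNA levels and say nothing of binding at the promoters shown above.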

How the data were processed

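Single-cell 3' RNA and hashtag libraries were made from sorted CD8 T cells. The deposited values are raw UMI counts per gene and barcode, written by Cell Ranger 7.0.0 per the file headers. Seurat 4.0.5 and the mm10 (GRCm38) build are given in the submitters' processing notes. Whether the authors counted reads by strand is not given in the sources used here.

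Barcodes with at least 500 genes and under 15% mitochondrial UMIs were assigned to a hashtag with at least 10 UMIs and 3 times the next, a rule that replaced the planned HTODemux (Seurat 5.3.0), which became an alternative. The callers agreed on 92.5% of barcodes at d0 and on 34.9%, 60.9% and 94.1% in the libraries of donors 1, 2 and 3. The rule gave 3421 MitoNegative spleen cells of donor 1 and 2291 MitoPositive spleen cells of donor 2, where HTODemux gave 527 and 901. MitoNegative tumor cells of donor 1 numbered 30 by the rule and 79 by HTODemux. Between the arms in the spleen, 88 of 11453 genes and 0 of 39 members passed under HTODemux, with a median of -0.27 over the members. Doublets within a hashtag were not called. The d0 hashtag map is that of the deposited list. Leiden clusters (scanpy 1.11.5, leidenalg 0.10.2) with fewer than 50% Cd3 cells were dropped. UMI counts were summed per hashtagged sample, passed through filterByExpr, given TMM factors and tested by edgeR 4.0.16 (quasi-likelihood, R 4.3.3), with Benjamini-Hochberg adjustment over all genes tested at a threshold of 0.05. CPM use a sample's own UMI total without TMM. SEs come from the F statistic. The edgeR fits were tested on simulated counts. Between the arms, 82%, 60% and 72% of 2-fold changes were recovered in culture, tumor and spleen. For the differences between arm effects, 35% were recovered for tumor minus spleen, 41% for spleen minus culture and 45% for tumor minus culture. The 6 d0 samples were fitted without a donor term and the 12 d7 samples with donor as a block. Differences between days were fitted over all 18 samples, with donor as a block among the d7 samples. The SEs and p-values of the d0 fit thus include donor differences that those of the d7 fit leave out. Same-numbered samples come from the same donor mouse per the labels, which pairs them: their deviations correlated at 0.083 to 0.339 at d0, where samples of unlike donors gave -0.295 to 0.054. At d7 the values were -0.051 to 0.298 and, between unlike donors, -0.21 to 0.091. DESeq2 1.42.0, other filters, thinned cells, left-out clusters and left-out donors were alternatives. Clusters of low UMI number, samples of under 50 cells, added markers of other cell types and the other hashtag map beyond the d0 comparison were alternatives chosen after seeing the data. Per comparison, at most 10 members past the threshold per direction were named, in order of fold change, or the 4 largest where fewer than 4 passed, beside isoform families, c-ring genes and core subunits. Other members named singly were chosen after their values were seen. The members and lists were chosen with earlier results of these data known. Coordinates are from GENCODE M21, and promoter sequences from RefSeq.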

Additional observations from a re-analysis of the deposited data

Results flagged for a closer look

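The MitoPositive effect differed between spleen and culture for 16 members by a test of the difference itself (edgeR, log2 scale, d7 spleen minus d0). Those of complex IV were Cox7a1 (-2.82), Cox5a (-0.85), Cox5b (-0.81), Cox6c (-0.61), Cox6b1 (-0.57) and Cox7c (-0.50). Those of complex V were Atp5k (-0.75), Atp5j (-0.72), Atp5c1 (-0.68), Atp5o (-0.66), Atp5g3 (-0.61) and Atp5md (-0.51). Those of complex III were Cyc1 (-0.67), Uqcr10 (-0.54), Uqcrb (-0.51) and Uqcrq (-0.48). Cox7a1 rests on 299 UMIs in all 18 samples and was not tested at d0 alone. Atp5o, Uqcrb, Cox6c, Cox7c, Atp5md and Cox5b share 18.5% to 65.2% of their 3' stretches with other annotated genes. Cell cycle genes differed in the same direction. Without cycling clusters 3 members passed, among 398 of 12589 genes called, with a median of -0.39 against -0.46 with those clusters. Under the other hashtag map for d0, which the labels also give, none of the 16 passed and the median over the 40 tested was -0.16.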

How the results depend on the processing

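The counts of called members kept within 1.5 times under every alternative run for tumor against spleen in MitoPositive cells, for both tumor against culture comparisons and for spleen against culture in MitoNegative cells, and stayed at 0 for the arms in the tumor. Other counts moved. MitoPositive against MitoNegative in culture (3 called) gave 10 with no count filter, 1 in thinned cells (lower), 12 without low-UMI clusters, 22 with the donor as replicate block and 0 under the other hashtag map. Over all genes these fits called 1623 of 20431, 367 of 9022, 1472 of 10992, 2295 of 11436 and, under the other map, 0, against 1059 of 11436. Under that map the median was -0.11, Cox5a -0.12, Cox5b -0.068 and Atp5c1 -0.054, because the map assigns other samples to the arms. Leaving out 1 sample gave 0 to 8: 0 without MitoNegative donor 1 or 2, 1 without MitoPositive donor 2 or 3, and 8 without MitoPositive donor 1. The arms in the spleen (0) gave 8 by DESeq2, 3 with no filter, 1 in thinned cells, 9 without other-cell clusters and 7 with spleen samples alone, and 0 to 10 without 1 donor. Tumor against spleen in MitoNegative cells (18) gave 11 in thinned cells. The tumor minus spleen arm effect (0) gave 2 with no filter and 0 to 3 without 1 donor (3 without donor 3). The spleen minus culture arm effect (16) gave 7 by HTODemux, 2 in thinned cells, 3 without cycling clusters, 7 with no replicate block, 0 under the other hashtag map and 0 to 18 without 1 donor. All of these fits also called fewer of all genes than the 1408 of 12754 in the fit that gave 16. The tumor minus culture arm effect (0) gave 1 by DESeq2 and 1 with no filter. Spleen against culture in MitoPositive cells (30) gave 18 to 33 without 1 donor, 18 without donor 2. The causes were not tested unless named. The replicate block changed no other count by over 1.5 times. Of the single members' values, 1045 kept direction and call, 85 lost the call and 3 reversed. The tumor arm comparison rests on 30 to 112 MitoNegative cells per sample, which limits it.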
